A study of Mus musculus with 4 samples.

Results

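Capillary endothelial cells line the narrowest vessels of the submandibular gland, one of the major salivary glands, and were described here in single-cell libraries of mouse glands depleted of epithelium. A cell was counted as a member when it passed the quality limits (300 genes or more and at most 10% mitochondrial UMIs, unique molecular identifiers), held at least 4 UMIs over the pan-endothelial genes Pecam1, Cdh5, Egfl7 and Flt1, and held none of the leukocyte and fibroblast genes Ptprc and Pdgfra, the arterial genes Gja5, Sema3g and Stmn2, the venous genes Selp and Ackr1, or the lymphatic genes Prox1 and Mmrn1. It also held at most 2 UMIs over the interferon-induced genes Ifit1, Ifit2, Ifit3, Ifit3b and Oasl1. The rule took 8839 of 36685 retained cells, of which 1093 and 1807 came from the deligated libraries and 2943 and 2996 from the homeostatic libraries.

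All libraries came from female C57BL6/J mice and from submandibular glands, with sublingual glands named in the harvest protocol. In the 2 deligated libraries (mice aged 14 weeks) a metal clip closed the main ducts for 14 days and was then taken off for 5 days. The 2 homeostatic libraries (mice aged 12 weeks) came from mice with no surgery, so age, surgery and duct obstruction cannot be told apart, and there was no sham or still-ligated group. In all 4 libraries epithelial cells carrying EpCAM and red blood cells carrying Ter119 were removed with magnetic beads, followed by dead cells.

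Capillary endothelium exchanges water, solutes and hormones between blood and tissue, and in exocrine glands it is fenestrated, with pores bridged by diaphragms built from the protein Plvap. It lays down a basement membrane of type IV collagen, laminins, nidogens and perlecan together with the pericytes that wrap it. It also takes up fatty acids through Cd36, Fabp4 and the lipase anchor Gpihbp1, presents chemokines to passing leukocytes and, like nearly all cells, runs a circadian clock.

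The levels below are UMIs scaled to library size (CPM, counts per 1000000 UMIs) in the summed counts of the members of each library. Each pair of values is given with replicate 1 before replicate 2. A gene was called changed at a Benjamini-Hochberg adjusted p under 0.05 in edgeR's quasi-likelihood test over 12629 genes, and log2 differences are deligated minus homeostatic with their standard error, from 2 libraries per group. By that test 3985 genes (31.6%) were called, 1479 (11.7%) higher and 2506 (19.8%) lower in deligated capillaries, with a median log2 difference over all genes of 0.00. This background is high, and each list of genes is to be read against it.

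Several facts of the libraries touch every result. Per the file headers the deligated matrices were made with Cell Ranger 6.0.1 and the homeostatic ones with Cell Ranger 7.0.0, so version and group cannot be told apart. Genes with over 100 kb of intron held 9.87% and 9.43% of the members' UMIs after deligation and 14.7% and 14.5% in the homeostatic libraries, and their median log2 difference was -0.78, against 0.21 for genes with at most 2 kb. With that trend in intron length removed, 3312 genes (26.2%) were called, 1053 (8.34%) higher and 2259 (17.9%) lower. The members held a median of 4983 and 4023 UMIs in the deligated libraries and 3412 and 3360.5 in the homeostatic ones. The homeostatic libraries lay close together and the deligated ones did not (chi-square per degree of freedom of the members' counts 3.46 and 25.1). Without homeostatic replicate 1 the count of called genes fell to 1421, without homeostatic replicate 2 to 1398, and without deligated replicate 1 or 2 it rose to 6309 or 6236. Rises were a smaller part of the calls without either homeostatic library and a larger part without either deligated one. List counts with a library left out therefore cannot be read against the 11.7% and 19.8% above. The members of any pair of libraries shared 1 or 2 cell barcodes.

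UMIs of other cell types were present in the members and differed between the groups. The 17 salivary secretory products, of which 16 were in the files, summed to 80.5 and 522 CPM in the deligated libraries and to 7617 and 8524 CPM in the homeostatic ones, and 15 of the 16 fell. Klk1, a kallikrein of granular ducts, was found in 1.76% and 5.22% of deligated members thinned to 2000 UMIs and in 60.5% and 63.6% of homeostatic members. Fibroblasts of the same libraries showed it in 1.54%, 5.59%, 51.4% and 46.9% of cells. The epithelial markers summed to 1.33 and 5.60 CPM against 81.02 and 86.56 CPM. Pericyte markers moved the other way, with all 7 tested of 8 higher and sums of 159 and 272 CPM against 26.6 and 37.3 CPM. Fibroblast markers summed to 61.2 and 149 CPM against 24.8 and 10.3 CPM (4 of 5 tested rose), and immune markers to 21.9 and 128 CPM against 152 and 108 CPM (2 of 7 tested fell). Haemoglobin and other erythroid genes summed to 7489 and 17409 CPM against 10138 and 9731 CPM, with none of 5 called. The rule itself sets Ptprc and Pdgfra to 0 in every member.

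**Figure D1:**
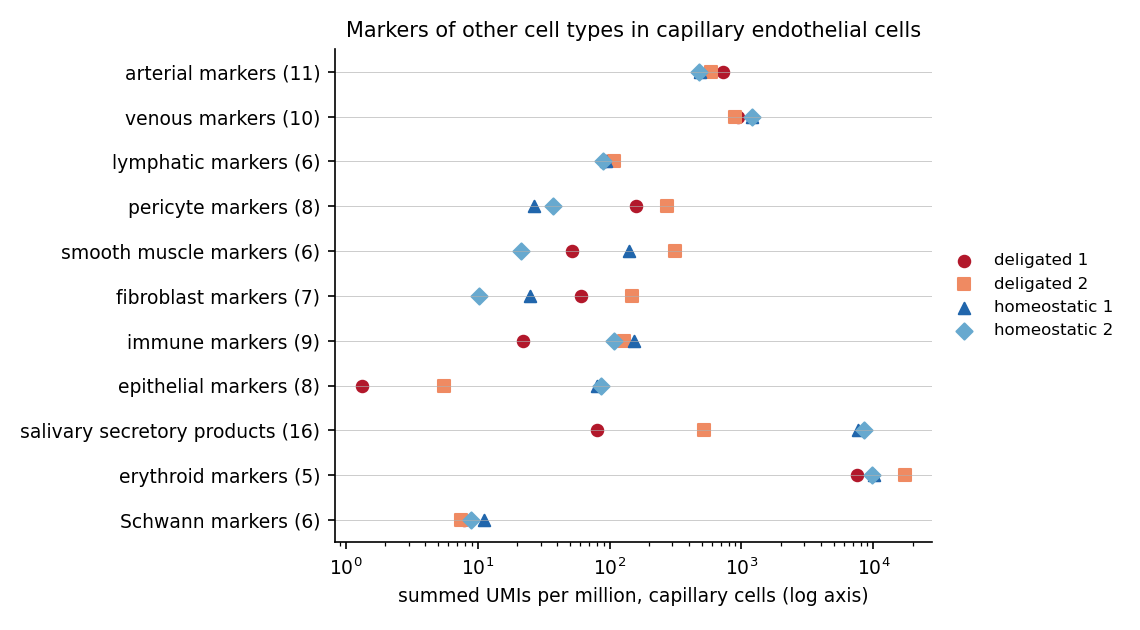
Summed level of marker genes of other cell types in capillary endothelial cells of each library (CPM, log axis), with the number of genes in brackets and rule genes left out. Points are libraries. Salivary products and epithelial markers lie higher in both homeostatic libraries, pericyte and fibroblast markers in both deligated ones.

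The label was checked against genes that the rule did not use. Plvap, the diaphragm protein of fenestrated endothelium, was detected in 98.0% and 98.3% of deligated members and in 96.8% and 97.8% of homeostatic members after thinning to 2000 UMIs (exact 95% intervals from 96.0% to 98.9%). The same measure ran from 12.5% to 22.3% in fibroblasts, from 56.5% to 68.4% in arterial cells (2 or more UMIs of the rule's arterial genes) and from 97.8% to 100% in venous cells (1 or more of its venous genes), so Plvap marks endothelium here and does not set capillaries apart from veins. Without thinning the shares were 98.2%, 97.9%, 95.5% and 95.3% in members. Rgcc, a regulator of the cell cycle that is abundant in capillaries, was found in 86.9% to 90.4% of thinned members, 52.3% to 66.98% of arterial cells and 40.4% to 57.0% of venous cells. Gpihbp1 was found in 68.8% to 78.6% of members, 35.9% to 46.7% of arterial cells and 18.9% to 46.2% of venous cells. Summed over 12 endothelial identity genes outside the rule, the members held 10137 to 11140 CPM in the 4 libraries, against 6468 to 8152 CPM in arterial cells, 8454 to 10420 CPM in venous cells and 338 to 504 CPM in fibroblasts. Vwf, the clotting protein of larger veins, was found in 0.488% to 0.932% of thinned members, 3.04% to 6.45% of arterial cells, 20.4% to 41.3% of venous cells and at most 0.279% of fibroblasts. Arterial and venous cells were told from members by genes of the rule, so these levels are a description. Car4 and Btnl9, like Rgcc, were found in more members than arterial or venous cells in every library. Other genes of the capillary list went the other way. Cd36 was found in 28.1% to 39.2% of members and 54.2% to 77.0% of arterial cells, and Cxcl12 in 61.5% to 76.9% and 78.5% to 89.6%. Aqp1 was found in 15.5% to 25.2% of members and 63.3% to 74.3% of venous cells. The markers of the list thus did not all follow the label.

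The members were chosen by the UMIs of the rule's own genes, whose values are given as a description. Pecam1, the junctional adhesion molecule, stood at 1560 and 1519 CPM in the deligated libraries and at 1627 and 1606 CPM in the homeostatic ones. Cdh5, the adherens junction cadherin of endothelium, stood at 967 and 951 CPM against 760 and 766 CPM. Egfl7, a secreted matrix protein of vessels, stood at 2232 and 2710 CPM against 1895 and 1976 CPM, and Flt1, a receptor for VEGF, at 4209 and 3767 CPM against 4056 and 3950 CPM. At the endothelial limit, cells with exactly 4 UMIs numbered 2, 9, 83 and 100 in the 4 libraries, and cells with 3 UMIs, just outside, numbered 13, 24, 94 and 94. The VEGF receptor Kdr stood at 397, 156, 819 and 645 CPM in the cells just inside and at 430, 60.3, 482 and 183 CPM in those just outside, against 1976 to 2617 CPM over all members. These levels, and those of Gja4 and Vwf beside the other limits, are CPM without the TMM factor. Cells kept out by 1 arterial UMI numbered 84, 118, 136 and 114, and their Gja4, a gap junction gene of arterioles, ran from 111 to 209 CPM against 28.8 to 42.9 CPM in the members. Cells kept out by 1 venous UMI numbered 41, 55, 51 and 52, and their Vwf ran from 33.8 to 105 CPM against 2.88 to 6.36 CPM.

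Members made up 24.2% and 21.5% of the retained cells in the deligated libraries (exact 95% intervals 22.9 to 25.5% and 20.7 to 22.4%) and 25.1% and 24.8% in the homeostatic ones (24.3 to 25.9% and 24.1 to 25.6%). The group means of 22.9% ± 1.86 and 25.0% ± 0.208 (SD, n = 2) differed by -2.12 percentage points, and the exact two-sided permutation p was 0.333, the smallest that 2 against 2 libraries allow. Of the blood endothelial cells, members were 60.1% and 60.2% in the deligated libraries and 70.9% and 72.2% in the homeostatic ones (exact p = 0.333). The groups did not overlap in either measure, but at a minimum of 8 endothelial UMIs the shares of retained cells overlapped (23.7% and 21.1% against 22.8% and 22.5%, exact p = 1). The rule was then applied to cells thinned to 2000 UMIs, with shallower cells left out of members and denominator alike, which kept 4331 of 4521 and 7866 of 8386 retained cells in the deligated libraries but 7429 of 11713 and 7407 of 12065 in the homeostatic ones. Among these cells the share of blood endothelium was 79.3% and 77.2% against 80.4% and 81.5%, a difference of -2.70 in place of -11.4 points. The share of the retained cells that were kept was 33.4% and 29.3% against 39.8% and 40.2%, a difference of -8.66 points. Blood endothelial cells numbered 1820 and 3004 in the deligated libraries with raw UMIs and 1822 and 2987 after thinning. In the homeostatic libraries they numbered 4148 and 4152, then 3675 and 3657. Cells above the interferon limit made up a mean of 22.2% of deligated and 16.9% of homeostatic blood endothelium, and 7.47% and 8.99% after thinning. Depth and the loss of shallow cells changed together, mostly in the homeostatic libraries, and the part of each in these moves was not tested. The intervals cover counting error only, and the shares are of cells that came through the depletion, not of cells in the gland.

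**Figure D2:**
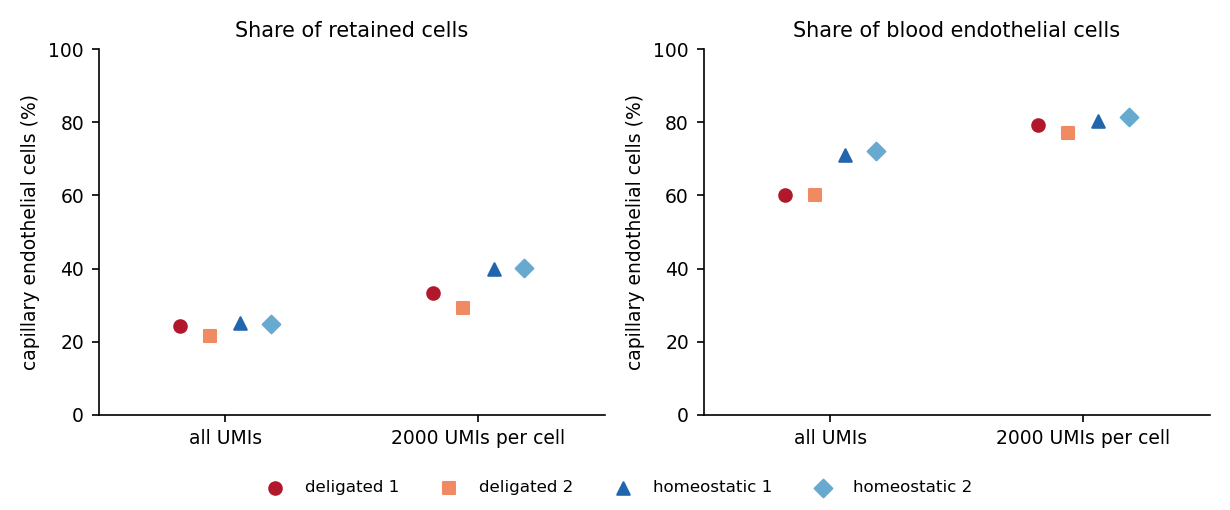
Capillary endothelial cells as a percentage of retained cells and of blood endothelial cells in each library, with raw UMIs and among cells of 2000 UMIs or more thinned to 2000 UMIs. Points are libraries and the axis is in percent. Among blood endothelial cells the gap between groups was 11.4 points with raw UMIs and 2.70 points after thinning.

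Of 12 tested identity genes outside the rule, 4 rose and 2 fell, with a median log2 difference of 0.15, and of 15 tested capillary markers 5 rose and 1 fell, with a median of 0.11. The falls are a smaller share of each list than the 19.8% of all genes that fell. With the intron trend removed the identity list held 1 rise and no fall, and the capillary list 2 rises and 3 falls. The capillary list held 6 rises and 3 falls without cells holding other-type UMIs, and 4 rises and 3 falls with members thinned to 1000 UMIs. Without homeostatic replicate 1 or 2 at most 1 gene of either list was called in each direction. Rgcc stood at 2112 and 2050 CPM in the deligated libraries and at 1956 and 1966 CPM in the homeostatic ones (log2 difference 0.09, adjusted p = 0.533). Gpihbp1 stood at 778 and 942 CPM against 793 and 804 CPM (0.11, adjusted p = 0.516), and the groups overlapped. Cd36, the fatty acid translocase, stood at 222 and 271 CPM against 317 and 303 CPM (-0.33, adjusted p = 0.0688). These 3 genes were not called.

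Car4, a carbonic anhydrase on the luminal face of capillaries, stood at 334 and 322 CPM in deligated and 457 and 489 CPM in homeostatic libraries, and fell by 0.53 ± 0.09 on the log2 scale (adjusted p = 0.00557). Tie1, an orphan receptor that modulates angiopoietin signalling, stood at 522 and 499 CPM against 350 and 342 CPM and rose (0.56 ± 0.08, adjusted p = 0.00389), and Sgk1, a salt-regulating kinase induced by glucocorticoids, stood at 614 and 457 CPM against 341 and 323 CPM and rose (0.69 ± 0.15, adjusted p = 0.0135). All 3 calls were lost without homeostatic replicate 1 and without homeostatic replicate 2. Plvap stood at 3369 and 3196 CPM against 2495 and 2599 CPM (0.37 ± 0.10, adjusted p = 0.0356), a call lost without either homeostatic library and with the intron trend removed (0.20, adjusted p = 0.19). Cd300lg (0.35, adjusted p = 0.0236), Btnl9 (0.37, adjusted p = 0.0485) and Esam (0.37, adjusted p = 0.0262) were called higher and lost their calls under the same 3 settings.

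Cldn5, the tight junction claudin of endothelium, stood at 23.9 and 24.3 CPM against 15.5 and 9.29 CPM and was called higher (0.96, adjusted p = 0.0197), but not without homeostatic replicate 2 or with the intron trend removed. The transcription factors Erg (-0.86, adjusted p = 0.048) and Fli1 (-0.70, adjusted p = 0.00302), long genes of the endothelial programme, were called lower, and with the intron trend removed their differences were -0.08 and -0.27 and not called. Their calls were also lost without homeostatic replicate 2, and that of Erg without homeostatic replicate 1 as well. Kdr (0.33, adjusted p = 0.0703), Emcn (-0.26, adjusted p = 0.0933), Tek (-0.24, adjusted p = 0.0653), Robo4 (0.07, adjusted p = 0.543) and Rbp7 (-0.28, adjusted p = 0.234) were not called. Sox18 stood at 152 CPM in deligated replicate 1 and 621 CPM in deligated replicate 2, against 493 and 428 CPM (adjusted p = 0.759), so its spread between the deligated libraries exceeded the group difference.

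The members also varied among themselves within each library. In members thinned to 2000 UMIs and ranked by the variance of their UMIs over the mean, 27 genes were among the top 60 in all 4 libraries, among them the haemoglobins Hbb-bs and Hba-a1, the duct product Klk1, the capillary genes Fabp4, Cxcl12, Rbp7, Rgcc and Esm1, and the early response genes Fos, Jun and Junb. For Cxcl12 the ratio was 9.59 and 8.44 in the deligated libraries and 4.60 and 4.90 in the homeostatic ones. For Fabp4 it was 6.10 and 6.49 against 7.56 and 7.61. The ratio was not tested between the groups, and the mean level differed between the libraries too, at 5.05, 3.74, 1.90 and 2.06 UMIs per cell for Cxcl12 and 11.3, 14.1, 16.4 and 16.2 for Fabp4.

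Genes of the basement membrane and its matrix were higher in deligated capillaries. Of 24 tested, 17 were called higher and none lower, with a median log2 difference of 0.52 against 0.00 over all genes, and the groups did not overlap for 19 of 24 (69.1% of all genes). With the intron trend removed 18 were called higher, and without cells holding pericyte, smooth muscle, epithelial or erythroid marker UMIs 16 were. Fewer were called higher without homeostatic replicate 1 or 2, where far fewer of all genes were called higher too. The median stayed between 0.40 and 0.64 with any single library left out. Pericytes and fibroblasts make many of these proteins too, and both marker sums given above were higher in the deligated members. The filter on marker UMIs held no fibroblast gene. With it the median log2 difference was still 2.83 for fibroblast markers and 2.10 for pericyte markers. Their part in these rises was not tested.

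Col4a1 and Col4a2 encode the paired chains of type IV collagen. Col4a1 stood at 2749 and 1981 CPM in the deligated libraries and 1599 and 1585 CPM in the homeostatic ones (0.57 ± 0.16, adjusted p = 0.0375). Col4a2 stood at 1726 and 1317 CPM against 985 and 998 CPM (0.62 ± 0.14, adjusted p = 0.018). With the intron trend removed the log2 differences of this pair were 0.95 and 1.10. They are divergent neighbours, and their promoter windows overlap: the RefSeq window of Col4a1 (GRCm38.p6, chr8:11312777-11313076, minus strand, 250 bases before the start to 50 after) is shown because the pair rose together. Its capitals mark the 78 bases that it shares with the window of Col4a2 on the other strand.

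Col4a1: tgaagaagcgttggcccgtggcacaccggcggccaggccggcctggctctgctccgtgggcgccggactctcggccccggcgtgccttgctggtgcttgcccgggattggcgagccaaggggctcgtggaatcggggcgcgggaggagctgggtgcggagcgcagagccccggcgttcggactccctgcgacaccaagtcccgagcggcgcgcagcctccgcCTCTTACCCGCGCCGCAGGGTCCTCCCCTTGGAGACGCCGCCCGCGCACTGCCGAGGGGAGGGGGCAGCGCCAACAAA

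Vwa1, a matrix protein bound to perlecan, stood at 136 and 121 CPM in the deligated libraries and 78.5 and 70.8 CPM in the homeostatic ones, and rose by a log2 difference of 0.78 ± 0.10 (adjusted p = 0.00218). Adamts1, a secreted protease that cleaves matrix proteoglycans, stood at 182 and 147 CPM against 91.4 and 91.1 CPM (0.85 ± 0.12, adjusted p = 0.00279). Sparc, a collagen-binding glycoprotein, stood at 2245 and 2023 CPM against 1279 and 1304 CPM (0.72 ± 0.10, adjusted p = 0.00324). The deligated libraries were above both homeostatic ones for each of these genes, and Vwa1 and Adamts1 were called under all 18 alternatives, whereas the call of Sparc was lost without either homeostatic library. Lamb1, a laminin beta chain, stood at 219 and 161 CPM against 105 and 99.1 CPM (0.89 ± 0.15, adjusted p = 0.0055). Hspg2, which encodes perlecan, stood at 784 and 729 CPM against 535 and 526 CPM (0.51, adjusted p = 0.00712), and Col15a1, a collagen at the outer face of the basement membrane, at 608 and 499 CPM against 331 and 341 CPM (0.72, adjusted p = 0.00487). Timp3, a matrix-bound inhibitor of metalloproteinases, stood at 2410 and 2162 CPM against 1457 and 1516 CPM (0.62, adjusted p = 0.0063). Lama4, Fn1, Thbs1, Mmp14 and the integrin chains Itga1, Itga6 and Itgb1 were the 7 genes of the list that were not called.

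**Figure D3:**
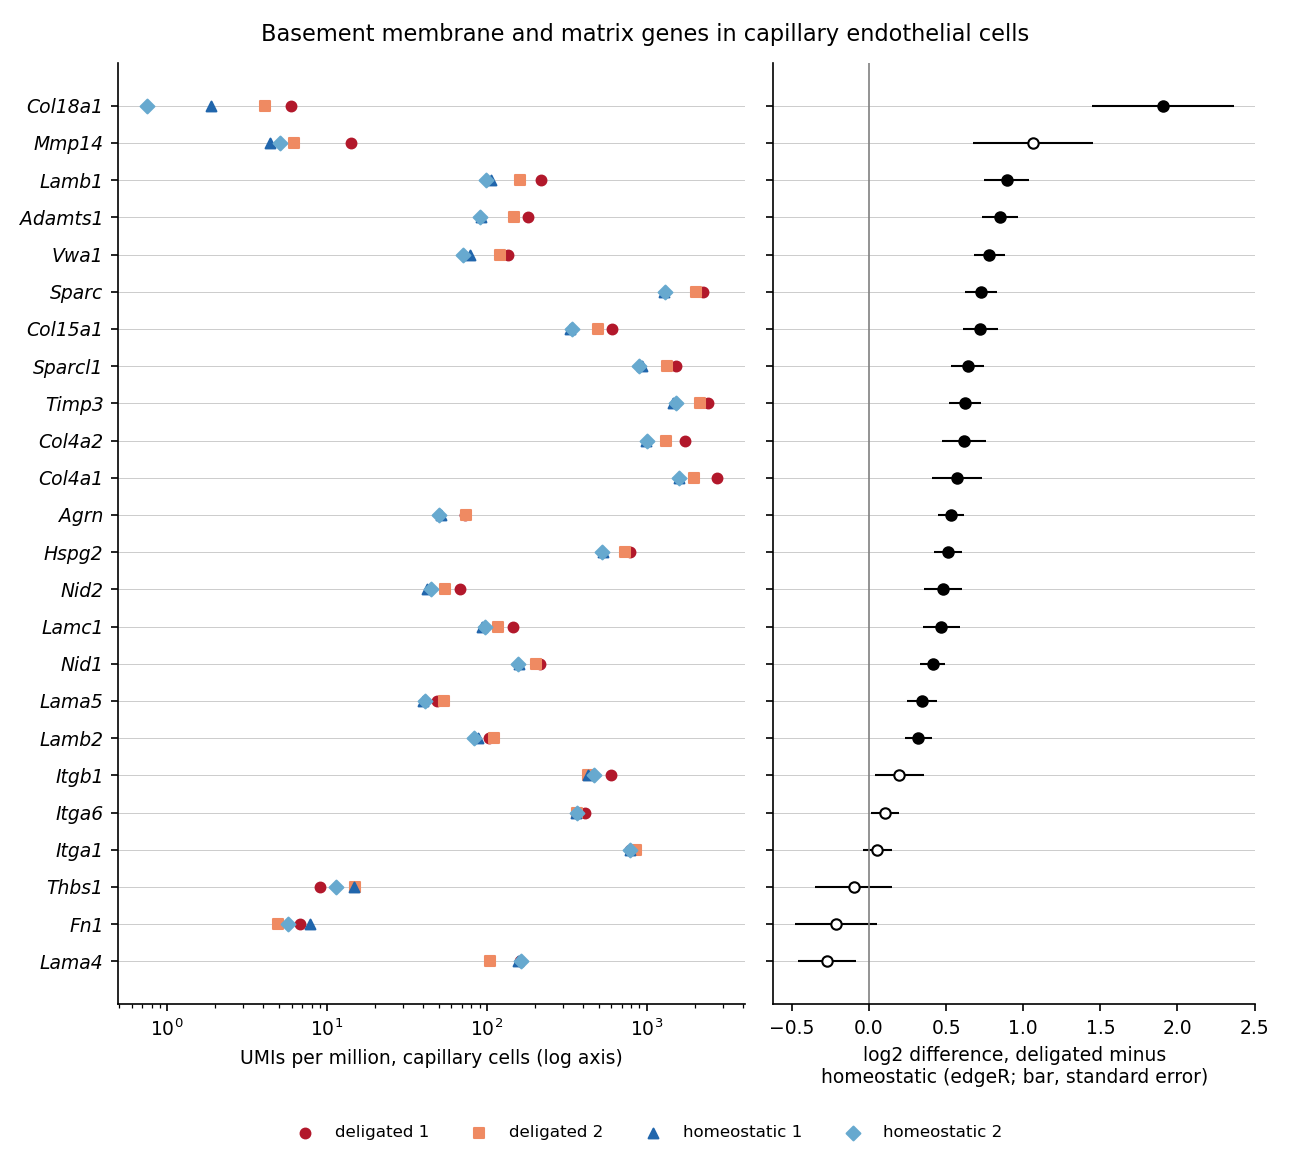
Genes of the basement membrane list in capillary endothelial cells. The left panel gives the level in each library (CPM, log axis) and the right panel the log2 difference, deligated minus homeostatic, with its standard error as a bar. Filled circles mark an adjusted p under 0.05 and open circles the rest, and all 17 filled circles lie to the right of 0.

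Among chemokine and leukocyte adhesion genes the most UMIs were those of Cxcl12, the ligand that holds Cxcr4-bearing leukocytes and progenitors near vessels. Cxcl12 stood at 2624 and 1847 CPM in the deligated libraries and 901 and 1007 CPM in the homeostatic ones, and rose by a log2 difference of 1.23 ± 0.18 (adjusted p = 0.00333; 1.02 with the intron trend removed). It was called under all 18 alternatives. After thinning, 76.9% and 72.2% of deligated members held a Cxcl12 UMI against 61.5% and 63.3% of homeostatic members, although fibroblasts, which also make it, held one in 56.4% to 70.4% of cells. Cxcl1, a neutrophil chemokine, stood at 4.60 and 7.09 CPM against 1.7 and 1.67 CPM (1.80, adjusted p = 0.00774), a call lost without either homeostatic library. In the whole list 4 of 17 tested genes were called higher and none lower, with a median of 0.06, and 1 was called without homeostatic replicate 1 or 2.

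Among VEGF and angiopoietin genes 3 of 15 rose and 3 fell. Over all genes 11.7% were called higher and 19.8% lower, so the falls were near the background. Plxnd1, a semaphorin receptor that guides vessel growth, stood at 317 and 283 CPM against 169 and 173 CPM and rose (0.81 ± 0.09, adjusted p = 0.00128). Vegfc, a growth factor for lymphatic vessels, stood at 19.4 and 29.95 CPM against 70.6 and 75.0 CPM and fell (-1.55 ± 0.18, adjusted p = 0.0016). Both calls held in every alternative tried for them, and without homeostatic replicate 1 or 2 the list held 1 rise and 1 fall.

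In the apelin and tip-cell list, named for the cells that lead vessel sprouts, 4 of 17 genes rose and 1 fell. Aplnr, the apelin receptor, stood at 204 and 247 CPM in the deligated libraries and 116 and 115 CPM in the homeostatic ones (0.96 ± 0.11, adjusted p = 0.00131) and was called under all 18 alternatives. A UMI of Aplnr was found in 28.9% and 32.7% of deligated members thinned to 2000 UMIs (exact 95% intervals 26.1 to 31.8% and 30.4 to 35.1%) and in 17.6% and 18.9% of homeostatic members (16.2 to 19.2% and 17.4 to 20.5%). Fibroblasts held one in at most 1.12% of cells, and the unthinned shares of members were 50.1%, 49.3%, 26.5% and 25.9%. The arteriolar gene Gja4 was found less often in members with Aplnr than in those without in all 4 libraries, at 5.07% against 8.93% and 3.98% against 8.77% in the deligated libraries and 0.68% against 5.73% and 1.89% against 5.99% in the homeostatic ones. Cd34, a sialomucin of capillaries and tip cells, stood at 816 and 777 CPM against 581 and 564 CPM (0.48, adjusted p = 0.00852), and Unc5b, a netrin receptor, at 27.9 and 25.8 CPM against 20.1 and 17.9 CPM (0.50, adjusted p = 0.0213). Those 2 calls were lost without either homeostatic library, when the list held 1 call. Lrg1, a secreted glycoprotein that modifies TGF-beta signalling in vessels, stood at 40.6 and 27.8 CPM against 9.67 and 12.1 CPM and rose by a log2 difference of 1.64 ± 0.21 (adjusted p = 0.00228) under every alternative.

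Notch genes, which set arterial character and restrain sprouting, moved upward where they were called. Of 16 tested, 9 rose and none fell, with a median of 0.39 (8 rose with the intron trend removed), but 1 was called without homeostatic replicate 1 and none without homeostatic replicate 2. Efnb2, the arterial ephrin, stood at 187 and 201 CPM in the deligated libraries and 135 and 131 CPM in the homeostatic ones (0.55 ± 0.08, adjusted p = 0.004). The ligand Jag1 stood at 20.3 and 19.1 CPM against 12.8 and 11.5 CPM (0.69, adjusted p = 0.00764), and the ligand Dll1 at 26.4 and 30.2 CPM against 18.3 and 15.4 CPM (0.75, adjusted p = 0.00801). The receptor Notch1 stood at 219 and 242 CPM against 185 and 174 CPM (0.36, adjusted p = 0.0247). Dll4, the ligand of tip cells, overlapped between the groups at 59.0 and 75.2 CPM against 55.3 and 60.5 CPM (0.22, adjusted p = 0.251). Of the 11 tested arterial markers outside the rule 5 rose and none fell, with 1 called without homeostatic replicate 1 or 2, and the list sum was 721 and 589 CPM against 482 and 475 CPM. Sox17, an arterial transcription factor, stood at 136 and 109 CPM against 69.5 and 61.1 CPM (0.90 ± 0.13, adjusted p = 0.00345) and was called under all 18 alternatives. The venous marker sum was 938 and 897 CPM against 1196 and 1206 CPM, with 2 of 10 genes higher and 1 lower.

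Of 16 tested genes of flow sensing and vascular tone, 5 rose and 2 fell. Klf4, a flow-induced transcription factor, stood at 637 and 528 CPM against 383 and 377 CPM (0.62, adjusted p = 0.00791), and its relative Klf2 stood at 1370 and 1191 CPM against 942 and 892 CPM (0.48, adjusted p = 0.0166). Ednrb, the endothelin receptor of endothelium, stood at 356 and 404 CPM against 286 and 278 CPM (0.43, adjusted p = 0.0158). Without homeostatic replicate 1 or 2 none of the list was called higher. Piezo1, a mechanosensitive cation channel, stood at 61.1 and 76.2 CPM against 136 and 134 CPM and fell by 0.97 ± 0.12 on the log2 scale (adjusted p = 0.00166) in every alternative. Piezo1 lies inside the antisense gene model Gm20388 described below, so its count is uncertain. Nos3, the endothelial nitric oxide synthase, stood at 54.0 and 56.1 CPM against 54.6 and 53.1 CPM (0.03, adjusted p = 0.809).

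Haemostasis, junction and caveola genes had list medians of 0.14, 0.27 and 0.28. Serpine2, an inhibitor of thrombin, stood at 19.9 and 20.0 CPM in the deligated libraries and 10.4 and 9.94 CPM in the homeostatic ones (0.97 ± 0.12, adjusted p = 0.00184), and Thbd, the thrombin receptor thrombomodulin, at 541 and 623 CPM against 366 and 361 CPM (0.68, adjusted p = 0.00363; 0.33 and 0.0524 with the intron trend removed). In the haemostasis list 3 of 10 rose and 1 fell, and 1 rose without homeostatic replicate 1 or 2. Among 14 junction genes 7 rose and 1 fell, including Ctnnd1, which stabilises cadherins (137 and 128 CPM against 90.2 and 92.8 CPM, 0.53, adjusted p = 0.00451), and the connexin Gja1 (174 and 172 CPM against 126 and 122 CPM, 0.48, adjusted p = 0.00519). At most 1 junction gene was called in each direction without homeostatic replicate 1 or 2. Of 9 genes of caveolae and diaphragms 3 rose, Plvap, Ehd2 (0.38, adjusted p = 0.0206) and Ehd4 (0.59, adjusted p = 0.0455), and none was called without either homeostatic library.

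Of 18 fatty acid genes 4 were called higher and 2 lower, against a background of 11.7% and 19.8%, and 12 were not called. Pparg, a nuclear receptor that drives lipid uptake genes, stood at 21.4 and 19.3 CPM in the deligated libraries and 44.9 and 40.7 CPM in the homeostatic ones and fell (-1.08 ± 0.12, adjusted p = 0.00106) in every alternative. Fabp5, a fatty acid carrier, stood at 322 and 287 CPM against 440 and 445 CPM (-0.54, adjusted p = 0.00652), a call lost without either homeostatic library. Slc27a3, an acyl-CoA synthetase of the fatty acid transport family, stood at 28.5 and 27.1 CPM against 17.0 and 16.3 CPM (0.74, adjusted p = 0.00391), a call lost without homeostatic replicate 2. Fabp4 was the most abundant gene of the list, at 5800 and 6758 CPM against 7988 and 8142 CPM (-0.36, adjusted p = 0.065). With the intron trend removed its difference was -0.71 (adjusted p = 0.0084). The list held 2 rises and 1 fall without homeostatic replicate 1, and 0 rises and 1 fall without homeostatic replicate 2.

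Of 18 transport genes 5 rose and 4 fell, and the falls were near the 19.8% of all genes called lower. Slc2a1, the glucose transporter Glut1, stood at 10.97 and 14.9 CPM against 27.8 and 24.8 CPM (-1.01, adjusted p = 0.00521). Slc7a5, a carrier of large neutral amino acids, stood at 1.33 and 0.915 CPM against 8.33 and 5.76 CPM (-2.66, adjusted p = 0.00264), and it too overlaps Gm20388. Slco3a1, an organic anion carrier, stood at 48.9 and 50.8 CPM against 76.0 and 81.2 CPM and was called lower (-0.66, adjusted p = 0.00279), but its difference was 0.22 with the intron trend removed. No transport gene was called higher without homeostatic replicate 1 or 2, and 3 and 2 were called lower. Among TGF-beta and BMP genes 4 of 19 rose and 4 fell, again with falls near the 19.8% of all genes. Fewer of them were called without homeostatic replicate 1 or 2. Bmp6, a ligand that endothelium releases in iron regulation, stood at 8.01 and 10.5 CPM against 34.4 and 38.6 CPM and fell by 1.96 ± 0.16 (log2, adjusted p = 0.000333). Tgfbr1, a TGF-beta receptor, stood at 38.4 and 28.6 CPM against 60.5 and 59.1 CPM (-0.84, adjusted p = 0.00632). Tmem100, a target of endothelial BMP signalling, stood at 2.97 and 4.34 CPM against 0.537 and 0.65 CPM (2.61, adjusted p = 0.00463), a call lost without either homeostatic library.

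**Figure D4:**
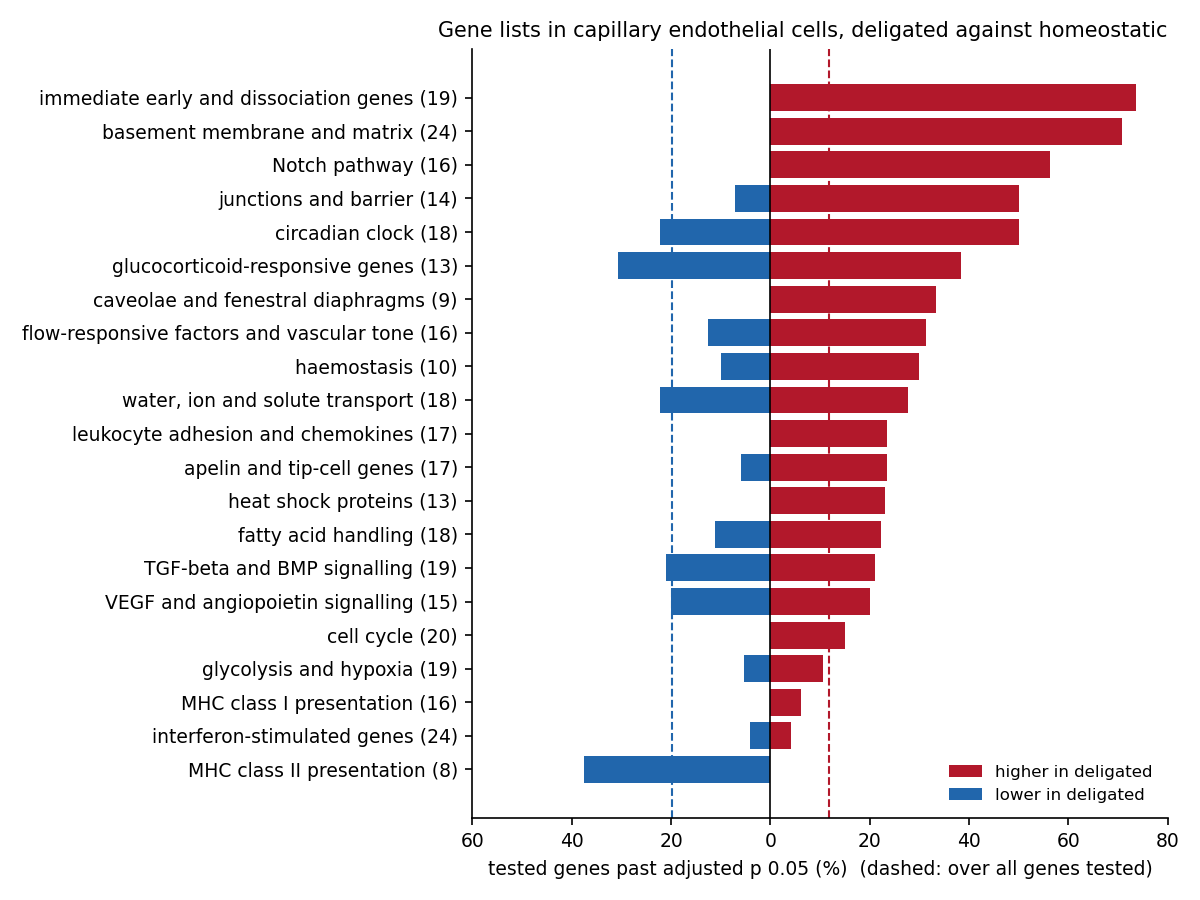
Bars give the percentage of the tested genes of each pathway list (number tested in brackets) with an adjusted p under 0.05 in capillary endothelial cells, higher in deligated to the right and lower to the left. Dashed lines mark the same percentages over all genes tested, 11.7% and 19.8%. Marker lists of cell types are not shown. Among the lists shown, the immediate early (14 of 19) and basement membrane (17 of 24) lists have the longest bars to the right, and MHC class II (3 of 8) the longest to the left.

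Clock genes differed between the groups with small standard errors. In the core clock, Arntl (BMAL1) and Clock activate genes through E-boxes, Per and Cry proteins repress that activity, and the receptors Nr1d1 and Rora repress or activate Arntl. Of 18 tested clock genes 9 were called higher and 4 lower, with a median log2 difference of 0.71, and 6 and 3 were called without homeostatic replicate 1 as well as without homeostatic replicate 2. With the intron trend removed 7 were higher and 4 lower. The time of day at which each gland was taken is not given in the sources used here, so it cannot be told apart from the group.

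Dbp, an output factor of the clock, stood at 73.1 and 71.3 CPM in the deligated libraries and 11.5 and 10.6 CPM in the homeostatic ones, and its log2 difference of 2.70 ± 0.10 had an adjusted p of 2.29e-05. Nr1d1 (REV-ERB alpha), the repressor of Arntl, stood at 78.6 and 102 CPM against 19.2 and 20.3 CPM (2.20 ± 0.15, adjusted p = 0.000177). Rora, the activator at the same sites, stood at 34.5 and 30.5 CPM against 166 and 176 CPM (-2.40 ± 0.10, adjusted p = 2.84e-05), and with the intron trend removed the difference was -0.95 (adjusted p = 0.00167). These 3 genes kept their calls in every alternative, and thinning left a Dbp UMI in 12.9% and 12.4% of deligated members against 2.44% and 1.99% of homeostatic members. Antisense neighbours overlap Dbp (Sphk2) and Nr1d1 (Thra), and whether the counting used strand is not given in the sources used here. Arntl stood at 27.7 and 24.7 CPM against 51.0 and 56.1 CPM (-1.03 ± 0.11, adjusted p = 0.00105). Tef, an output factor related to Dbp, stood at 41.1 and 43.3 CPM against 15.6 and 16.9 CPM (1.38 ± 0.11, adjusted p = 0.000326), and Hlf, another relative, at 82.1 and 76.6 CPM against 37.2 and 38.5 CPM (1.07, adjusted p = 0.000448). Ciart, a repressor of the Clock and Arntl pair, stood at 5.34 and 3.66 CPM against 1.97 and 1.21 CPM (1.48, adjusted p = 0.0273). Per1, a repressor of the core clock, stood at 18.1 and 15.0 CPM against 29.2 and 27.9 CPM (-0.79, adjusted p = 0.00548), lower as Arntl was, and Clock itself stood at 105 and 96.5 CPM against 108 and 108 CPM (-0.10, adjusted p = 0.395).

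Promoter windows of 3 clock genes are shown because the window of each holds the motif that the textbook loop assigns to it. The capitals mark the E-box CACGTG in Ciart (chr3:95882179-95882478, minus strand) and Tef (chr15:81802423-81802722, plus strand), and the receptor motif AGGTCA in Arntl (chr7:113207261-113207560, plus strand). The windows are those of RefSeq in GRCm38.p6, from 250 bases before to 50 after the start.

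Ciart: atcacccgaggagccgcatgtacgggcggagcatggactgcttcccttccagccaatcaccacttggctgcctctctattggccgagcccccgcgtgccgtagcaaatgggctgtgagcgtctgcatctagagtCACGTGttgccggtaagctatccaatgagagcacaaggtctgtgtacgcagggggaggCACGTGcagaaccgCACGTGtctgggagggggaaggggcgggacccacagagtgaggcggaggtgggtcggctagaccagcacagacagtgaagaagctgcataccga
Tef: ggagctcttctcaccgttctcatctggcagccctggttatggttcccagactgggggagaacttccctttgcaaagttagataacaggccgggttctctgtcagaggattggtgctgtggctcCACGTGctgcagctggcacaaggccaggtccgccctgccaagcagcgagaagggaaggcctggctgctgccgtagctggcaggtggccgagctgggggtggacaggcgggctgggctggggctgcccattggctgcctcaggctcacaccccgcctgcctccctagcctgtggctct
Arntl: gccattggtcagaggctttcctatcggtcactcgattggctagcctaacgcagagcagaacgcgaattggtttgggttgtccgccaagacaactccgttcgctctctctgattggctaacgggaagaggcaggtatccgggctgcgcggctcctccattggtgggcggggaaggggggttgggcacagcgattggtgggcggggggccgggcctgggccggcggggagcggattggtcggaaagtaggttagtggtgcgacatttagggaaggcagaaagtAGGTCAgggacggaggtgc

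Ciart holds CACGTG at 3 places and Tef at 1, and Arntl holds AGGTCA at 1 place. CACGTG, which reads alike on both strands, was found in 2349 of 32851 windows of all genes (7.15%), and AGGTCA on either strand (read there as TGACCT) in 5340 windows (16.3%). Of the 16 clock genes with a window, 5 held CACGTG and 5 held AGGTCA. Among the 9 genes called higher 3 held CACGTG and 1 AGGTCA, and among the 4 called lower 1 held CACGTG and 3 AGGTCA. The windows of Dbp and Nr1d1 held neither. A match describes these letters in this window only.

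**Figure D5:**
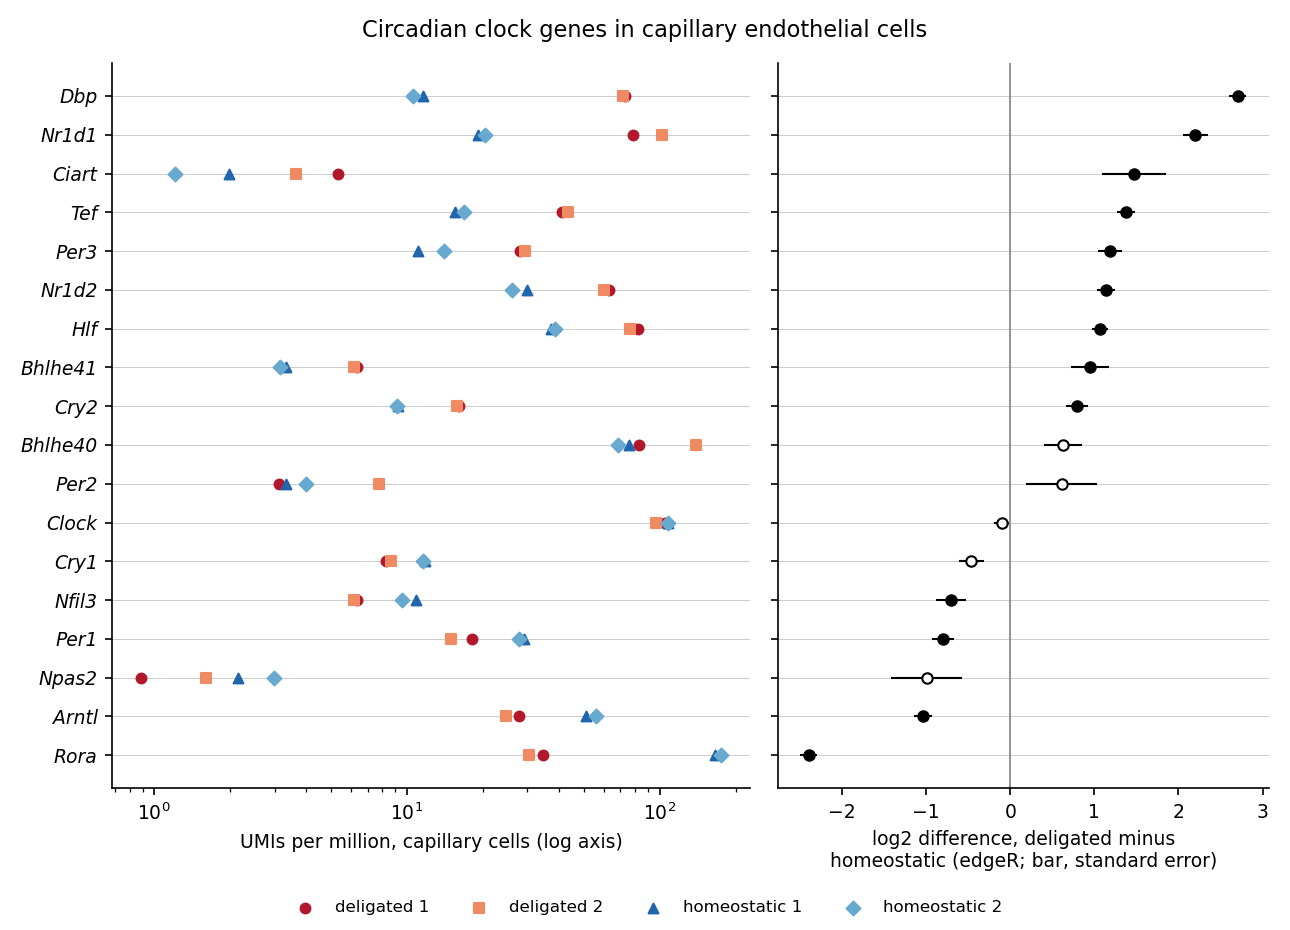
Clock genes in capillary endothelial cells. The left panel gives the level in each library (CPM, log axis) and the right panel the log2 difference, deligated minus homeostatic, with its standard error as a bar, where filled circles mark an adjusted p under 0.05 and open circles the rest. Differences run from 2.70 for Dbp to -2.40 for Rora, with the 2 libraries of a group close together for both.

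Immediate early genes, which respond within minutes to stimulation and to tissue dissociation, were higher in deligated capillaries. Of 19 tested, 14 were called higher and none lower, with a median of 0.69, and 9 and 8 were called without homeostatic replicate 1 and 2. With the intron trend removed 11 were higher and 2 lower. Fos stood at 1364 and 1464 CPM in the deligated libraries and 546 and 548 CPM in the homeostatic ones (1.37 ± 0.09, adjusted p = 0.000193). Egr1 stood at 405 and 415 CPM against 151 and 145 CPM (1.47 ± 0.08, adjusted p = 8.97e-05), and Socs3, a feedback inhibitor of cytokine signalling, at 109 and 133 CPM against 36.7 and 34.9 CPM (1.76 ± 0.12, adjusted p = 0.000177). These 3 genes were called under all 18 alternatives. The share of thinned members with a Fos UMI overlapped between the groups, at 40.5% and 61.6% against 42.5% and 41.8%. The members' median mitochondrial share was higher in the deligated libraries, at 2.98% and 2.85% against 2.07% and 2.21%, and its part in the result was not tested. Of 13 heat shock genes 3 rose and none fell, among them the inducible Hspa1a (111 and 98.9 CPM against 60.4 and 59.1 CPM, 0.81, adjusted p = 0.00139).

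In the glucocorticoid-responsive list 5 of 13 genes rose and 4 fell (2 and 3 without either homeostatic library). The metallothioneins Mt1 and Mt2, which bind zinc and copper, fell: Mt1 stood at 7.41 and 14.9 CPM against 73.0 and 71.9 CPM (-2.67 ± 0.25, adjusted p = 0.000602), and Mt2 at 0.89 and 3.20 CPM against 15.4 and 16.3 CPM (-2.86, adjusted p = 0.00221). Ddit4, an inhibitor of mTOR signalling, stood at 35.1 and 66.2 CPM against 13.2 and 13.6 CPM and rose (1.93, adjusted p = 0.00387), so members of this list moved in opposite directions. Of 19 genes of glycolysis and hypoxia 2 rose, Gpi1 and Hif1a, and 1 fell, near or below the background.

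Genes of antigen presentation differed between the deligated libraries. Of 16 MHC class I genes 1 rose, the peptide transporter Tap1 (75.2 and 127 CPM against 60.4 and 58.9 CPM, 0.77, adjusted p = 0.0415), and its call was lost without either homeostatic library. The median log2 difference of the class I list was 0.23 without deligated replicate 1 and -0.20 without deligated replicate 2. Over all genes it was -0.01 and -0.03. Of 8 class II genes 3 fell and none rose, with a median of -0.998. Cd74, the invariant chain, stood at 12.5 and 73.6 CPM in the deligated libraries and 208 and 187 CPM in the homeostatic ones (-2.16, adjusted p = 0.0369), H2-Eb1 at 6.82 and 38.6 CPM against 93.6 and 83.0 CPM (-1.91, adjusted p = 0.0419), and the protease Ctss at 1.33 and 7.32 CPM against 25.4 and 22.5 CPM (-2.37, adjusted p = 0.00909). The macrophage genes C1qa (0.89 and 9.83 CPM against 39.7 and 34.9 CPM) and Lyz2 (0.89 and 4.69 CPM against 12.98 and 13.4 CPM) moved with them, and their part in the class II result was not tested. All 3 class II calls were lost without the cells of highest doublet score and with DESeq2, which called none of the list. Fewer class II genes were called without homeostatic replicate 1 or 2. The class II median was -2.75 without deligated replicate 2 and -0.27 without deligated replicate 1.

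Of 24 interferon-stimulated genes 1 rose and 1 fell, with a median of 0.13. The rule caps the UMIs of Ifit1, Ifit2, Ifit3, Ifit3b and Oasl1 in every member, which bears on this list. With raw UMIs the cap kept out more of the deligated blood endothelium (mean 22.2% against 16.9%), but not after thinning (7.47% against 8.99%). The list therefore describes cells chosen for low levels of such genes. Rsad2, the antiviral enzyme viperin, stood at 1017 and 969 CPM against 498 and 492 CPM (1.00 ± 0.09, adjusted p = 0.000503) under every alternative, and 71.1% and 72.3% of thinned deligated members held it against 51.9% and 52.3% of homeostatic ones (fibroblasts 3.46% to 5.45%). Bst2, the membrane tether of viruses, stood at 490 and 613 CPM against 770 and 729 CPM (-0.44, adjusted p = 0.0371), a call lost without either homeostatic library. The deligated libraries differed here, since the list median was 0.33 without deligated replicate 1 and -0.03 without deligated replicate 2. Over all genes the medians were -0.01 and -0.03.

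Of 20 cell cycle genes 3 rose and none fell, the mitotic genes Mki67, Cenpf and Top2a. Mki67 stood at 6.23 and 3.32 CPM against 1.07 and 0.929 CPM (2.21, adjusted p = 0.0103). None of the list was called when cells with marker UMIs of other types were left out, when the rule was applied to thinned cells, or without homeostatic replicate 2, and 1 was without homeostatic replicate 1. Thinned to 2000 UMIs, members with a UMI of Mki67 or Top2a made up 0.195% and 0.435% in the deligated libraries and 0.16% and 0.438% in the homeostatic ones, so the groups overlapped. Members with 2 or more UMIs over the cell cycle list at the same depth made up 14.9% and 15.7% against 13.6% and 13.2%, without overlap.

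The largest called rises among genes at 20 CPM or more outside the rule included genes of other cell types. Rgs5 and Abcc9, pericyte genes, stood at 85.0 and 178 CPM against 11.8 and 22.8 CPM (2.93 ± 0.42, adjusted p = 0.00323) and at 27.1 and 16.7 CPM against 3.4 and 4.18 CPM (2.51, adjusted p = 0.00125). Col3a1, a fibrillar collagen of fibroblasts, stood at 21.6 and 33.4 CPM against 4.92 and 1.58 CPM (3.08, adjusted p = 0.0025), and Gsn, an actin-severing protein abundant in fibroblasts, at 24.6 and 112 CPM against 13.1 and 10.4 CPM (2.56, adjusted p = 0.0253). A UMI of Rgs5 was found in 4.79% and 6.89% of thinned deligated members and in 1.56% and 1.27% of homeostatic ones. The calls of Col3a1 and Gsn were lost when the rule was applied to thinned cells, and that of Gsn also without either homeostatic library. Dbp and Nr1d1 made up the rest of the 6 largest rises above that level.

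The 6 falls taken by the fitted log2 difference were gene models listed with no UMI in either deligated library. The fitted value of such a gene depends on the prior count, so they are given as lower bounds, and their rank among all falls is not measured. Gm20388, a model on chromosome 8 from 119910841 to 124345722 (plus strand, GRCm38.p6) that spans many genes, held 2461 and 2489 UMIs in the homeostatic libraries (220 and 231 CPM), at least 1161-fold above a floor of 3 UMIs over the deligated group. Gm20532 stood at 119 and 118 CPM (at least 611-fold lower in deligated members), and it overlaps Egfl7, a rule gene, on the same strand (chromosome 2, 26586639 to 26635634), so the Egfl7 count, which enters the rule, is uncertain. Il31ra, which encodes a chain of the interleukin 31 receptor, stood at 77.3 and 91.6 CPM (at least 434-fold lower). Gm48099 (24.8 and 28.0 CPM, at least 136-fold lower) is a long intergenic RNA, and Rapgef4os1 (24.2 and 25.6 CPM, at least 128-fold lower) and 9330175M20Rik (22.9 and 24.6 CPM, at least 122-fold lower) lie antisense to Rapgef4 and Cavin2. Complete absence in one group coincides here with the Cell Ranger version, and its part in these falls cannot be told apart from the group.

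The group difference of capillaries was then compared with that of 3 other cell classes in the same libraries, as an interaction in 1 fit. The classes were 895 arterial cells (2 or more arterial UMIs), 391 venous cells (1 or more venous UMIs) and 1151 fibroblasts (2 or more Pdgfra UMIs). Against venous cells 12 of 11735 genes were called (0.102%), 11 higher (0.0937%) and 1 lower (0.00852%) in capillaries. The higher part of these calls was 91.7%, and it ran from 65.9% to 90% over the alternatives that kept all libraries. Against arterial cells 42 of 11982 were called (0.351%), 16 higher (0.134%) and 26 lower (0.217%), and against fibroblasts 453 of 13112 (3.45%), 219 higher (1.67%) and 234 lower (1.78%). At an unadjusted p under 0.05 there were 688, 1046 and 2399 genes. The fits had unequal numbers of cells, so the counts do not rank the classes. None of the clock genes differed in response between capillaries and any of the 3 classes by this test. Of the basement membrane list 0 differed from venous cells, 3 were lower relative to arterial cells, and 2 were higher and 2 lower relative to fibroblasts. In simulated arterial sums 10.6% of 2-fold and 42.9% of 3-fold interactions were recovered, and the other 2 fits were not simulated. A gene that was not called is therefore not shown to respond alike.

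Relative to venous cells, Lrg1 rose more in capillaries (interaction 1.37, adjusted p = 0.000953), since venous cells held 341 and 358 CPM in the deligated and 286 and 307 CPM in the homeostatic libraries. Aplnr rose less in capillaries than in venous cells (-0.89, adjusted p = 0.02), where it stood at 391 and 396 CPM against 112 and 115 CPM. That call was lost without deligated replicate 1 (-0.73, adjusted p = 0.113), and with cells thinned to 1000 UMIs (-0.71, adjusted p = 0.999). Mecom, a transcription factor of arterial and venous endothelium, stood at 93.9 and 37.2 CPM in deligated and 88.6 and 86.6 CPM in homeostatic capillaries and at 162 and 78.9 CPM against 412 and 353 CPM in venous cells (interaction 1.19, adjusted p = 0.000953). With cells thinned to 1000 UMIs the calls of Lrg1 (1.32, adjusted p = 0.669) and Mecom (0.61, adjusted p = 0.999) were lost as well. The venous class itself differed between the groups: 10 venous markers outside the rule summed to 2839 and 2331 CPM in the deligated and 3149 and 3290 CPM in the homeostatic libraries, and 11 arterial markers to 540 and 485 CPM against 758 and 640 CPM. Their part in these interactions was not tested.

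Relative to arterial cells, the response of Hspg2 was lower by 0.78 (adjusted p = 0.0166), that of Col15a1 by 1.43 (adjusted p = 0.0275) and that of Vwa1 by 1.14 (adjusted p = 0.0257), all on the log2 scale. In arterial cells Col15a1 stood at 337 and 188 CPM against 42.1 and 79.7 CPM, and Hspg2 at 565 and 470 CPM against 215 and 225 CPM. These 3 calls did not hold throughout. That of Hspg2 was lost with cells thinned to 1000 UMIs (-0.18, adjusted p = 0.96), that of Col15a1 at a minimum of 8 UMIs (-1.37, adjusted p = 0.051), and that of Vwa1 without homeostatic replicate 1 (-1.12, adjusted p = 0.0986), without homeostatic replicate 2 (-1.17, adjusted p = 0.06), with cells thinned to 1000 UMIs (-1.63, adjusted p = 0.503) and without cells holding other-type UMIs (-0.89, adjusted p = 0.0522). Gja4 (interaction 1.11, adjusted p = 0.0166), Cldn5 (1.39, adjusted p = 0.0177) and Prdm16, an arterial transcription factor (1.64, adjusted p = 0.00796), went the other way, and the call of Prdm16 was lost with cells thinned to 1000 UMIs (0.97, adjusted p = 0.671). The arterial class itself differed between the groups in its markers outside the rule: 11 arterial markers summed to 3188 and 3932 CPM in the deligated and 4846 and 5212 CPM in the homeostatic libraries, and 16 capillary markers to 18179 and 17123 CPM against 13852 and 13862 CPM. The part of these shifts in the arterial interactions was not tested. In arterial cells Gja4 stood at 304 and 431 CPM in the deligated and 570 and 581 CPM in the homeostatic libraries, and Prdm16 at 77.7 and 89.1 CPM against 136 and 134 CPM. In capillaries Prdm16 stood at 58.7 and 52.7 CPM against 28.9 and 26.7 CPM and rose (1.00 ± 0.11, adjusted p = 0.00102). Ifi27l2a, an interferon-induced gene, stood at 3.85 and 15.7 CPM against 71.9 and 87.0 CPM in capillaries and at 70.2 and 101 CPM against 116 and 87.7 CPM in arterial cells (interaction -2.88, adjusted p = 0.0112).

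Relative to fibroblasts, Nupr1, a stress-induced chromatin protein, and G0s2, an inhibitor of triglyceride breakdown, fell in capillaries without such a fall in fibroblasts. Nupr1 stood at 3.85 and 7.89 CPM in the deligated and 71.1 and 69.1 CPM in the homeostatic libraries in capillaries, and at 578 and 681 CPM against 653 and 631 CPM in fibroblasts (interaction -3.61, adjusted p = 1.7e-05). G0s2 stood at 2.08 and 6.40 CPM against 47.9 and 48.5 CPM in capillaries and at 362 and 611 CPM against 645 and 554 CPM in fibroblasts (-3.28, adjusted p = 3.98e-05). Rnf220, a ubiquitin ligase, stood at 40.8 and 39.0 CPM against 281 and 306 CPM in capillaries and at 32.6 and 28.7 CPM against 26.1 and 33.3 CPM in fibroblasts (-2.99, adjusted p = 1.7e-05). The rise of Cxcl12 in capillaries exceeded that in fibroblasts, where it stood at 703 and 727 CPM against 534 and 592 CPM (interaction 0.79, adjusted p = 0.0494), a call lost without homeostatic replicate 1 (0.73, adjusted p = 0.378) and without homeostatic replicate 2 (0.73, adjusted p = 0.376).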

How the data were processed

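Single-cell RNA libraries from 4 gland preparations (2 deligated, 2 homeostatic) were used. Per the file headers, the authors deposited UMI counts per gene and barcode made with Cell Ranger 6.0.1 (deligated) and 7.0.0 (homeostatic), whereas the submitters' processing notes name Cell Ranger 6.0.1 for all 4, with Seurat and mm10. Whether introns or strand entered the counting is not given in the sources used here.

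Retained barcodes held 300 genes or more and at most 10% mitochondrial UMIs. The members' counts were summed per library (6951081, 8487838, 11026992 and 10907809 UMIs) and tested with edgeR 4.0.16 (quasi-likelihood, TMM scaling, filterByExpr, Benjamini-Hochberg) in R 4.3.3, with the library as replicate. No doublet caller was applied in the main test; an alternative left out the highest simulated-doublet scores. Protocols name a pair of glands per preparation, and nothing says how many animals each holds, so p-values measure only the spread between these samples, which may be technical. Interactions were fitted with the library as a term. Venous cells were first to have 2 or more UMIs of Selp and Ackr1, which gave under 50 cells in 3 libraries, so 1 or more was used, chosen after seeing the data. Intron lengths came from an annotation matching 31011 of 31053 genes, and promoter sequences from RefSeq (GRCm38.p6).

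The members, lists and tests were chosen with earlier results of these data known. Named genes were the 6 called genes with the largest fitted rise and the 6 with the largest fitted fall at 20 CPM or more, up to 3 called genes per list, identity and capillary markers, and 3 called genes per direction and interaction. Other genes of the lists that are named were chosen after their values were seen. Simulated counts with known changes were recovered for the group comparison at 66.0% (2-fold) and 89.4% (3-fold) of changed genes among 12509, with 1 false call of 117, and for the arterial interaction at 10.6% and 42.9% among 11684, with 3 false calls of 55. Alternatives changed scaling (DESeq2 1.42.0 size factors or test), filters, depth, membership, intron trend, replicate block and libraries. The intron trend and the replicate block were changed for the group comparison only, not for the interactions.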

Additional observations from a re-analysis of the deposited data

Results flagged for a closer look

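The group difference in capillary cells differed from that in another class for the genes named by rule, by the interaction term of edgeR's quasi-likelihood test with Benjamini-Hochberg adjustment. Against venous cells the log2 interaction was 1.19 for Mecom (adjusted p = 0.000953), 1.37 for Lrg1 (adjusted p = 0.000953), 3.69 for Rgs5 (adjusted p = 0.0192) and -0.89 for Aplnr (adjusted p = 0.02). Over the alternatives the adjusted p of these 4 genes reached 0.999, 0.669, 0.927 and 0.999. In venous cells Rgs5, a pericyte gene, stood at 26.0 and 33.6 CPM in the deligated libraries and at 108 and 0 CPM in the homeostatic ones.

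Against arterial cells the interaction was 1.64 for Prdm16 (adjusted p = 0.00796), 1.11 for Gja4 (adjusted p = 0.0166), 1.39 for Cldn5 (adjusted p = 0.0177), -2.19 for Slco2b1 (adjusted p = 0.00797), -2.88 for Ifi27l2a (adjusted p = 0.0112) and -0.97 for Plpp1 (adjusted p = 0.0163). The adjusted p stayed at or under 0.0367 for Gja4, Cldn5 and Ifi27l2a over the alternatives, and reached 0.671, 0.806 and 0.112 for Prdm16, Slco2b1 and Plpp1. Slco2b1, an organic anion carrier, stood at 69.5 and 118 CPM in deligated and 148 and 160 CPM in homeostatic capillaries, and at 40.3 and 47.9 CPM against 18.2 and 15.1 CPM in arterial cells. Plpp1, a lipid phosphatase, stood at 2046 and 2048 CPM against 2181 and 2250 CPM in capillaries and at 792 and 597 CPM against 385 and 405 CPM in arterial cells.

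Against fibroblasts the interaction was 5.71 for Hba-a1, 2.50 for Mast4, 2.53 for Dlc1, -3.61 for Nupr1, -2.99 for Rnf220 (each adjusted p = 1.7e-05) and -3.28 for G0s2 (adjusted p = 3.98e-05). Dlc1 stood at 703 and 651 CPM against 887 and 913 CPM in capillaries and at 152 and 163 CPM against 1250 and 1280 CPM in fibroblasts. Mast4 stood at 172 and 152 CPM against 117 and 127 CPM in capillaries and at 107 and 89.4 CPM against 466 and 412 CPM in fibroblasts. Hba-a1, a haemoglobin gene, stood at 1396 and 3006 CPM against 1655 and 1596 CPM in capillaries and at 6.64 and 31.1 CPM against 831 and 590 CPM in fibroblasts. Its interaction was -0.37 without cells holding other-type UMIs and 1.95 without high doublet scores. The adjusted p of the other 5 genes stayed at or under 0.000321 over the alternatives.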

How the results depend on the processing

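For the group comparison in capillaries (3985 genes) the count was 618 among the 4335 genes with at most 10 kb of intron, 2116 with members thinned to 1000 UMIs, and 1398 to 6309 with 1 library left out, where the lone sample is assumed to vary like the other groups. DESeq2 called 2831 genes. The replicate numbers do not pair the libraries by their labels (same-number correlation of deviations -0.22); a fit with the replicate block called 3896 genes, and the crossed pairing, added after seeing the data, 4147. Removing the intron trend turned Slco3a1 to 0.22 and Dlc1 to 0.64, with or without the block. Of 103 named genes 85 were called, 37 of them under every alternative.

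Against venous cells (12 genes) the count was 41 without a filter, 6 thinned, 33 at a minimum of 8 UMIs, 37 at 5% mitochondrial UMIs, 25 without high doublet scores and 29 to 39 with 1 library left out. Rgs5 turned to -1.79 without high doublet scores and ranged from -7.70 (without homeostatic replicate 1) to 5.17 with 1 library left out. Against arterial cells (42) it was 281 without a filter, 15 thinned, 182 at 5% mitochondrial UMIs, 137 without high doublet scores, 106 without cells holding other-type UMIs and 54 to 210 with 1 library left out. Against fibroblasts (453) it was 929 unfiltered, 197 thinned, 695 without other-type cells and 188 to 798 with 1 library left out; Hba-a1 turned to -0.37 without other-type cells. The share of fibroblast calls that were higher was 48.3% in the main fit and 56.9% with DESeq2 size factors. It was 36.1% at a minimum of 8 UMIs and 35.1% without other-type cells. The causes were not tested.

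The share of retained cells differed by -8.66 points thinned, -0.28 at 8 UMIs and -5.38 without Epcam, Krt8 and Alas2 cells, and by -3.43 to -0.80 with 1 library left out. The share of blood endothelium differed by -2.70 thinned, -10.6 at 8 UMIs and -12.1 to -10.8 with 1 library left out. The planned comparison with venous cells of 2 or more UMIs was not run, for lack of cells. In simulated arterial sums 10.6% of 2-fold interactions were recovered, so changes of that size can be missed there.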
